A study of Homo sapiens with 6 samples.

Results

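The mitochondrial fatty acid oxidation genes described here are PDK4, CPT1A, CPT2, SLC25A20, ACADVL, ACADM, HADHA, HADHB, HADH and ETFDH, 10 of the 14428 genes that could be tested in lines made from A2058, a human melanoma cell line in long use. They were chosen by the glucose response of the TET2WT line set against that of the other lines, so that contrast is given as a description without a test. Matched by the platform's annotation, they have 21 probe sets that name a single gene.

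Long-chain fatty acids enter the mitochondrion as carnitine esters: CPT1A makes the ester at the outer membrane, SLC25A20 carries it across the inner membrane and CPT2 turns it back into an acyl-CoA. ACADVL and ACADM take the first electrons from the acyl-CoA, the HADHA and HADHB proteins together form the trifunctional protein that carries out the following steps on long chains, HADH acts on shorter chains, and ETFDH passes electrons to ubiquinone. PDK4 is a kinase that switches off the pyruvate dehydrogenase complex, which limits the use of glucose carbon and is known to favour fat as fuel in fasted muscle and heart.

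Total RNA was hybridised to 6 Affymetrix arrays. The lines were A2058 overexpressing TET2WT, A2058 overexpressing the construct named TET2M in the labels, and Mock. Each grew for 7 days in DMEM, where high glucose was 4.5 g/L and normal glucose 1 g/L, and was split during growth. TET2 acts on DNA, where it oxidises the methyl group of methylcytosine. Each of the 6 combinations had 1 array, and the labels do not say whether a line is a single clone, which change TET2M carries or what the Mock line carries. Precision is limited by the number of arrays. Values are deposited log2 probe set values, differences are log2 differences, ± is limma's standard error, and a gene is said to pass where its adjusted p from limma, over all 14428 genes, is under 0.05. The error comes from how far single arrays departed from the sum of a line and a glucose term, and limma draws it towards that of all genes. With 1 array per combination, this departure is the difference in glucose response between lines, which includes the contrast that chose these genes. Their standard errors, and so the counts that passed, are not independent of that choice. The p-values measure only the spread between these arrays. Levels of different probe sets are not compared with each other. The values are of bulk RNA, in which fewer cells with a transcript and less transcript per cell cannot be told apart.

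The TET2 probe set 1569385_s_at was highest in TET2WT, at 9.54 in high and 9.68 in normal glucose. It was at 7.57 (high) and 7.37 (normal) in TET2M, against 3.81 (high) and 4.13 (normal) in Mock. TET2 probe set 235461_at gave 6.64 and 6.87 in TET2WT, 4.57 and 3.89 in TET2M, and 2.1 and 2.64 in Mock, high glucose first. A further TET2 probe set, 227624_at, stayed between 5.15 and 5.41 on all arrays. Of the melanocyte lineage markers, SOX10 lay between 9.38 and 9.65 and MITF between 6.30 and 6.96, whereas MLANA, TYR and TYRP1 lay below the filter level of 2.64 on every array. The log2 values of the 7 measured melanocyte lineage markers, including those below the filter level, were summed. The sums ran between 34.06 and 34.4 in TET2WT, 34.01 and 35.1 in TET2M, and 34.47 and 34.49 in Mock. Of the blood markers, PTPRC lay below the filter level on every array, while LYZ lay between 5.39 and 6.35. Of the endothelial markers, CDH5 lay below it on every array, while PECAM1 lay between 4.09 and 4.45 and VWF between 3.23 and 3.79. The log2 values of the keratinocyte markers summed to 20.08 and 18.68 in TET2WT, 21.77 and 20.39 in TET2M, and 21.68 and 21.7 in Mock (4 markers, high then normal glucose). Such sums do not show single markers: MITF and KRT14, described at the end, passed as lower in TET2WT than in Mock. The other tested markers of their lists did not pass. The gap between the 3' and 5' probe sets of ACTB, a sign of RNA quality, was 2.06 and 1.90 in TET2WT, 1.93 and 1.65 in TET2M, and 2.02 and 1.94 in Mock.

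PDK4 had the widest range of the 10 genes, 1.80 between its highest and lowest array. The 250 bases before its start site are shown because PDK4 is the only one of the 10 that passed a test (RefSeq, GRCh38.p14, chr7:95596517-95596766, minus strand).
PDK4 promoter: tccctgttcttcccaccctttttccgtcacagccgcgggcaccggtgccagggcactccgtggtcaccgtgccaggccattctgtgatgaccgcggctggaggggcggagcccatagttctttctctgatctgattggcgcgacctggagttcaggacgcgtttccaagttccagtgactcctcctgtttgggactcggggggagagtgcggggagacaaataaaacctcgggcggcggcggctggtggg
HADHA and HADHB lie head to head with start sites 307 bases apart, and the stretch that their promoter windows share is shown because 1 sequence stands before both subunits of a complex (RefSeq, GRCh38.p14, chr2:26244689-26244882, plus strand, which is HADHB's; 194 bases, 68.6% G or C).
HADHA and HADHB shared stretch: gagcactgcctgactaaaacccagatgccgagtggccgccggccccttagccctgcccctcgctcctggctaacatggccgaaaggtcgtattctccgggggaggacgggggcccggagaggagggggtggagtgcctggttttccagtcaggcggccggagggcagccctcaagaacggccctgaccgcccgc
Promoter windows of 250 bases before and 50 after the start site were in the RefSeq table for 9 of the 10 genes, all except ETFDH. On both strands, 0 of the 9 held the nuclear receptor core AGGTCA, against 13.9% of 27305 promoters. The other motifs searched were DR1 (AGGTCANAGGTCA, 0.022% of promoters), the ESRRA site TCAAGGTCA (0.359%), the FOXO site GTAAACA (3.41%) and the E box CACGTG (7.43%), and each had 0 matches in the 9 windows. Both DR1 and the ESRRA site contain that core. These letters are absent from these windows, and nothing follows about binding elsewhere.

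In TET2WT, PDK4 (225207_at) was at 5.46 in high and 6.21 in normal glucose, against 4.73 and 4.71 in TET2M and 4.59 and 4.41 in Mock. Both TET2WT arrays lay above all 4 others, so the lines did not overlap, and the TET2WT array in normal glucose was the highest of the 6. How many of all genes have TET2WT arrays apart from the other 4 was not counted, here or for the genes below. PDK4 rose in TET2WT against Mock by 1.335 ± 0.221 (limma, adjusted p = 0.0323). With 290 of the 14428 genes higher in TET2WT than in Mock, 2.01%, and 608 called in either direction, 4.21%, PDK4 was the only one of the 10 genes to pass. The call rests on all 6 arrays: without any 1 array, or with only the 4 arrays of TET2WT and Mock, the adjusted p lay between 0.186 and 0.385, while the difference stayed between 0.91 and 1.76.

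Against TET2M the PDK4 difference in TET2WT was 1.115 ± 0.221 and missed the threshold (limma, adjusted p = 0.0604). It passed when the deposited values were quantile normalized (adjusted p = 0.0407) and when the variance was allowed to follow the intensity (adjusted p = 0.00274). TET2M and Mock differed by 0.22 ± 0.221 (adjusted p = 0.800), a difference of the size of its standard error. PDK4's level was thus highest in TET2WT, and its neighbours in that order, TET2M and Mock, did not differ beyond their spread.

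A second PDK4 probe set, 205960_at, gave 2.62 and 3.10 in TET2WT, 2.36 and 2.34 in TET2M, and 2.38 and 2.43 in Mock, high glucose first. Its mean of 2.54 is under the filter level, so it was not tested, and its highest array was again TET2WT in normal glucose. The third, 1562321_at, stayed between 1.87 and 2.17 on all arrays with no line apart from the others.

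**Figure D1:**
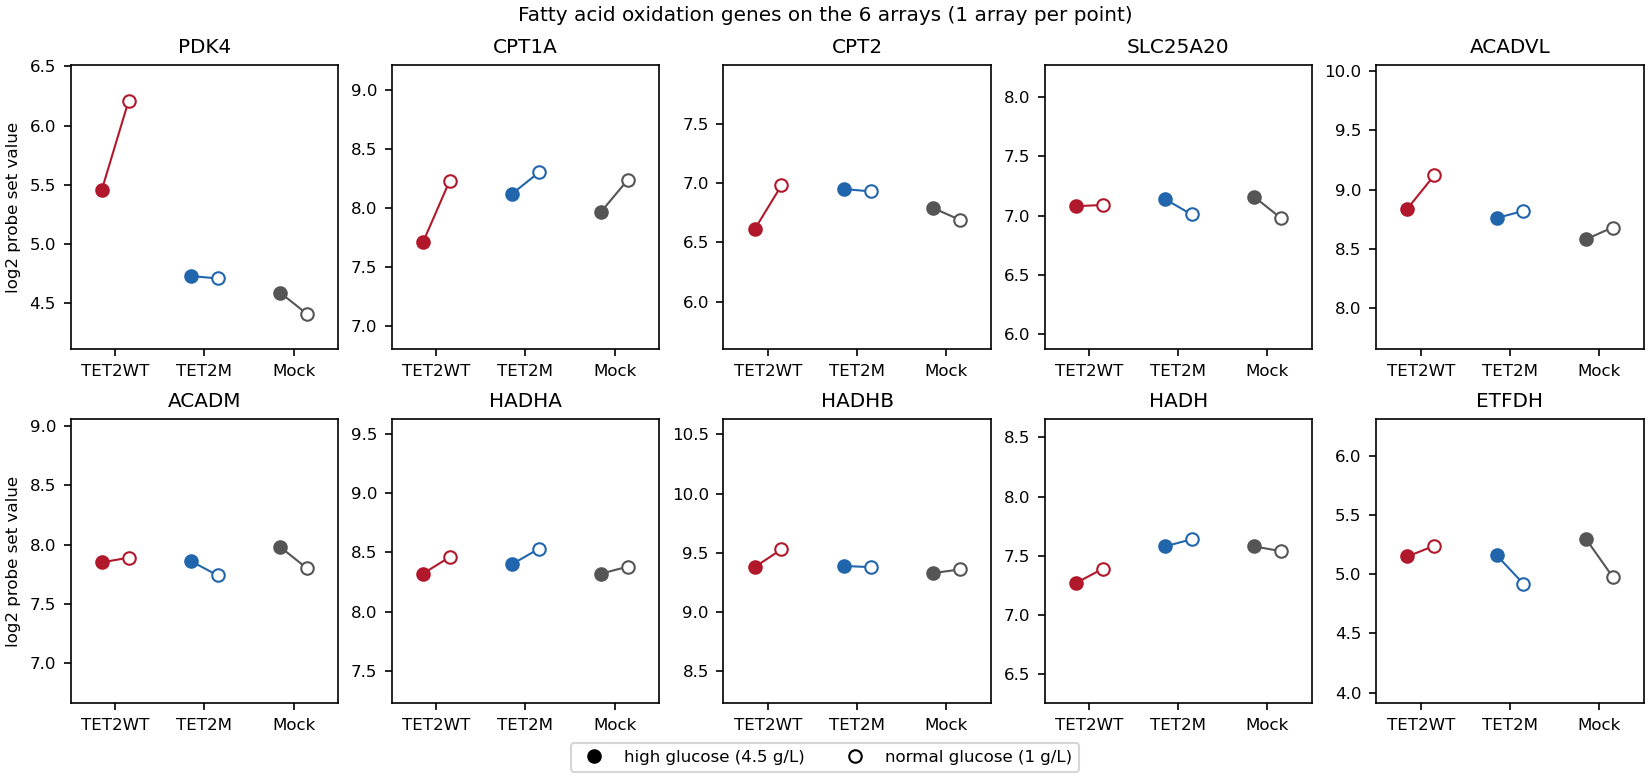
Log2 probe set values of the 10 genes (y axes, each spanning the same number of log2 units) in TET2WT, TET2M and Mock (x axis), 1 array per point, filled for high and open for normal glucose. PDK4 is at 5.46 and 6.21 in TET2WT and at or below 4.73 on the other 4 arrays, and SLC25A20 stays between 6.98 and 7.16.

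None of the carnitine shuttle genes CPT1A, SLC25A20 and CPT2 passed a test between lines. CPT1A, the enzyme held to control entry into the pathway, was at 7.71 and 8.23 in TET2WT, 8.12 and 8.30 in TET2M, and 7.97 and 8.24 in Mock (203633_at, high then normal glucose). Its lowest array was TET2WT in high glucose, the value in high glucose was under that in normal glucose in each line, and the lines overlapped. Over the 3 lines CPT1A differed by -0.32 ± 0.0912 between high and normal glucose and missed the threshold (limma, adjusted p = 0.217), although it passed with a variance that follows the intensity (adjusted p = 0.0262). The other CPT1A probe sets above the filter level differed from it: over the lines the glucose difference was 0.05 for 210688_s_at and 0.14 for 203634_s_at.

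CPT2 was at 6.61 and 6.98 in TET2WT, 6.95 and 6.93 in TET2M, and 6.79 and 6.69 in Mock (204263_s_at). The lowest and the highest of the 6 arrays were both TET2WT, in high and in normal glucose. Between lines CPT2 differed by 0.06 ± 0.134 for TET2WT against Mock, by 0.20 ± 0.134 for TET2M against Mock and by -0.14 ± 0.134 for TET2WT against TET2M, none of which passed. SLC25A20, the carrier between the 2 carnitine palmitoyltransferase steps, had the narrowest range of the 10 genes, 0.18, and its line differences were 0.015 or less with a standard error of 0.0943.

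Of the acyl-CoA dehydrogenases, ACADVL had lines that did not overlap and ACADM had lines that did. ACADVL, which acts on very long chains, was at 8.84 and 9.12 in TET2WT, 8.76 and 8.82 in TET2M, and 8.58 and 8.68 in Mock. Both TET2WT arrays lay above all 4 others, and both TET2M arrays above both of Mock. The difference in TET2WT against Mock was 0.35 ± 0.0978 and did not pass (limma, adjusted p = 0.123), though it did with a variance that follows the intensity (adjusted p = 0.00717). ACADM, the medium-chain enzyme, was at 7.85 and 7.89 in TET2WT, 7.86 and 7.74 in TET2M, and 7.98 and 7.80 in Mock. Its lines overlapped, and ACADM's differences between lines ran from -0.09 (TET2M against Mock) to 0.07 (TET2WT against TET2M).

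HADHA and HADHB, the subunits of the trifunctional protein, kept within ranges of 0.21 and 0.20. HADHA was at 8.32 and 8.46 in TET2WT, 8.40 and 8.53 in TET2M, and 8.32 and 8.38 in Mock (208629_s_at), and each line was lower in high than in normal glucose. HADHA's probe set 208631_s_at had glucose differences of -0.33 in TET2WT, -0.13 in TET2M and 0.03 in Mock. For TET2WT against Mock 208631_s_at gave -0.13, while 208630_at gave 0.045. HADHB was at 9.38 and 9.53 in TET2WT, 9.39 and 9.38 in TET2M, and 9.33 and 9.36 in Mock, with TET2WT in normal glucose the highest array. TET2WT against Mock gave 0.04 ± 0.0871 for HADHA and 0.11 ± 0.0918 for HADHB, and neither passed. The array also carries a probe set for the HADHA pseudogene HADHAP1, and how far near-identical sequence is shared among the HADHA probe sets was not tested.

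HADH, the dehydrogenase of the third step on shorter chains, was at 7.27 and 7.39 in TET2WT, 7.58 and 7.64 in TET2M, and 7.58 and 7.54 in Mock (201036_s_at). At this probe set both TET2WT arrays lay below all 4 others. The difference was -0.28 ± 0.0915 against TET2M (limma, adjusted p = 0.196) and -0.23 ± 0.0915 against Mock (adjusted p = 0.238), and neither passed. The other HADH probe sets also had negative differences in TET2WT against Mock, -0.20 for 201035_s_at and -0.11 for 211569_s_at, but there the lines overlapped. At 211569_s_at TET2WT in normal glucose was the highest array (7.17). At 201035_s_at TET2WT in normal glucose (7.28) lay above TET2M (7.21) and Mock (7.13) in high glucose.

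ETFDH, the link to the respiratory chain, was at 5.15 and 5.24 in TET2WT, 5.16 and 4.92 in TET2M, and 5.30 and 4.98 in Mock (33494_at). The lines overlapped, and the highest array was Mock in high glucose. Its second probe set, 205530_at, differed in the comparison of TET2M with Mock, with 0.41 against -0.10 for the first, so the direction of ETFDH between those lines is not settled.

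**Figure D2:**
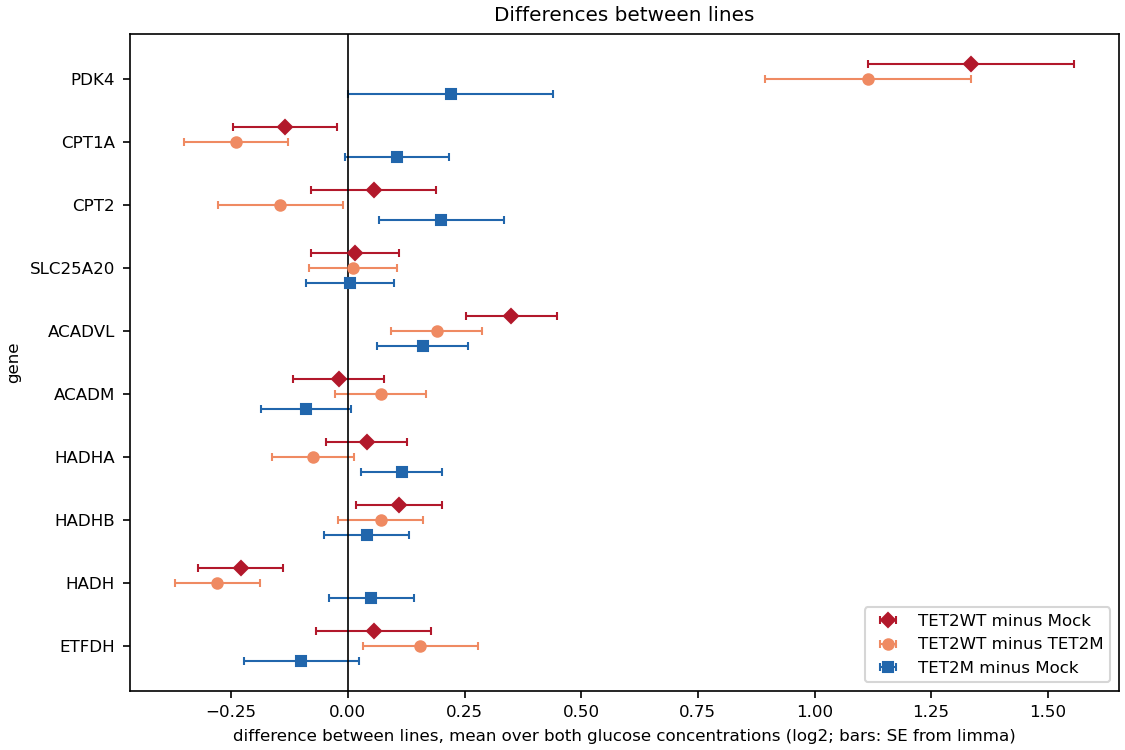
Differences between lines (x axis, log2, mean over both glucose concentrations) for the 10 genes (y axis), with bars of 1 standard error from limma. PDK4 has differences of 1.335 for TET2WT against Mock and 1.115 for TET2WT against TET2M, while the other 9 genes stay between -0.28 and 0.35.

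Over the 10 genes, PDK4 was alone in passing a test between lines. In TET2WT against Mock 7 differences were positive and 3 negative, with a median of 0.05 beside -0.01 for all genes, and 3 of 10 had an unadjusted p under 0.05 beside 20.2% of all genes. In TET2M against Mock 0 of 10 passed limma's test and 0 had an unadjusted p under 0.05. Over all genes 0.0970% passed there, 14 genes. The 10 genes' median was 0.08 with 8 positive, beside -0.02 for all genes. In TET2WT against TET2M 0 of 10 passed limma's test, 2 had an unadjusted p under 0.05 (PDK4 and HADH), and 3.30% of all genes passed. The 3 line comparisons share arrays and are not independent of each other.

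For glucose averaged over the lines, 0 of the 10 genes passed limma's test and 1, CPT1A, had an unadjusted p under 0.05. Over all genes 0.00693% passed, 1 gene of 14428, and 15.4% had an unadjusted p under 0.05. The differences ran from -0.32 for CPT1A to 0.16 for ETFDH, with 3 positive and 7 negative and a median of -0.07 beside -0.02 for all genes. The averages of PDK4 (-0.18 ± 0.180) and CPT2 (-0.08 ± 0.109) rest on TET2WT: without either of its arrays, the glucose difference was 0.10 for PDK4 and 0.06 for CPT2.

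The contrast by which the genes were selected on these arrays is the glucose difference within each line, 1 pair of arrays per line. In TET2WT all 10 genes were lower in high than in normal glucose, with differences from -0.75 (PDK4) to -0.01 (SLC25A20) and a median of -0.145, beside 0 for all genes. In TET2M the 10 genes ran from -0.18 to 0.24 with a median of 0.015, 4 negative and 6 positive. In Mock they ran from -0.27 to 0.32 with a median of 0.07, again 4 negative and 6 positive. The TET2WT difference was below that of both other lines in 10 of 10 genes, a pattern found in 32.6% of all genes, and nothing is read from this count because the genes were chosen by it.

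The largest gap between TET2WT and the mean of the other lines was -0.85 for PDK4, with within-line differences of -0.75 in TET2WT, 0.02 in TET2M and 0.18 in Mock. Among all 14428 genes, 43 had a gap as low. The genes were chosen by this contrast, so nothing is read from that rank or from the shares and tails that follow. CPT2 followed with -0.43 and ETFDH with -0.37, and the gap was smallest for HADHA, -0.05, where TET2WT (-0.14) and TET2M (-0.13) were nearly equal. That is at HADHA's probe set 208629_s_at, whereas 208631_s_at gave -0.33 in TET2WT, -0.13 in TET2M and 0.03 in Mock. A glucose difference of 1.5-fold or more within a line was seen for PDK4 in TET2WT and for 0 of the 10 genes in TET2M or Mock. It was seen in 2.32% of all genes in TET2WT, 1.97% in TET2M and 2.14% in Mock. In TET2WT 5% of all genes lay below -0.39 and 5% above 0.36, and PDK4 and CPT1A (-0.52) were in the lower tail. CPT1A's other probe sets above the filter level gave 0.19 (210688_s_at) and -0.17 (203634_s_at) in TET2WT.

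Several genes have more than 1 probe set, and these did not always share the pattern. Of the 18 probe sets at or above the filter level, 15 had the TET2WT glucose difference below both other lines, 2 had it above both (CPT1A 210688_s_at and HADH 201035_s_at), and CPT2 204264_at had it between them. CPT2 204264_at gave -0.15 in TET2WT, -0.33 in TET2M and 0.55 in Mock. HADH 201035_s_at was lower in high glucose in every line, by -0.29 in TET2WT, -0.30 in TET2M and -0.40 in Mock. Of the 18, the difference was negative for 17 in TET2WT, 9 in TET2M and 7 in Mock. Nothing is read from these counts, because the probe sets are those of genes chosen by this contrast.

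**Figure D3:**
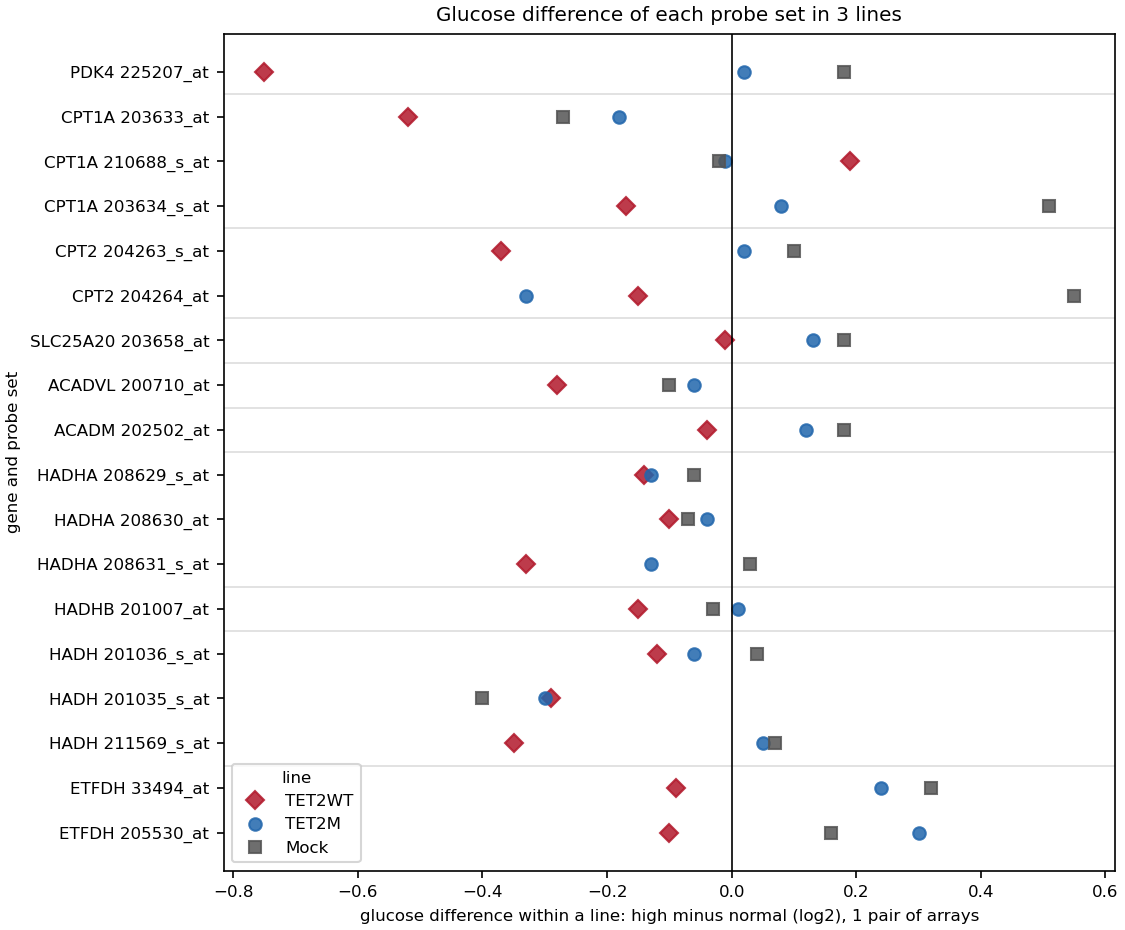
Glucose difference within each line (x axis, log2, high minus normal, 1 pair of arrays) for the 18 probe sets at or above the filter level (y axis). TET2WT (diamonds) is left of both other lines in 15 of 18, farthest for PDK4 at -0.75, and right of both in 2.

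Around the 10 genes, 98 other genes of 10 lists on fatty acid handling were looked at, of which 75 could be tested. In TET2WT against Mock 6 of the 75 passed, 5 higher and 1 lower, which is 8% beside 4.21% of all genes. As for PDK4, none of the 6 calls held without any 1 array or with only the 4 arrays of TET2WT and Mock. Among PPAR targets outside beta-oxidation 3 of 9 tested genes rose in TET2WT against Mock and 0 fell, beside 2.01% of all genes higher. Of the 9 differences 7 were positive, with a median of 0.27 beside -0.01 for all genes. The lists were chosen with earlier results of these data known. Nothing is therefore read from their shares beside those of all genes, here or below. PDK4 is itself a known target of PPAR receptors. Whether these receptors, or the regulators that follow, had a part in PDK4's level was not tested. Transcriptional regulators of the pathway gave 0 of 12 passing, with a median of 0.07, and the largest differences were -0.33 ± 0.123 for FOXO1 (limma, adjusted p = 0.219) and 0.26 ± 0.0995 for FOXO3 (adjusted p = 0.230), transcription factors that act on PDK4.

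ANGPTL4, a secreted inhibitor of lipoprotein lipase, was at 6.68 and 6.90 in TET2WT, 5.95 and 5.58 in TET2M, and 5.46 and 5.02 in Mock. UCP2, a carrier of the inner mitochondrial membrane, was at 7.84 and 7.85 in TET2WT, 6.78 and 6.63 in TET2M, and 6.64 and 6.70 in Mock. In both genes each TET2WT array lay above the other 4. ANGPTL4 rose in TET2WT by 1.55 ± 0.171 against Mock (limma, adjusted p = 0.0102) and by 1.02 ± 0.171 against TET2M (adjusted p = 0.0388). UCP2 rose by 1.18 ± 0.0964 against Mock (limma, adjusted p = 0.00419) and by 1.14 ± 0.0964 against TET2M (adjusted p = 0.00470), with 0.30 and 0.39 at its dimmer probe set. Within TET2WT the glucose difference was -0.22 for ANGPTL4 (221009_s_at) and -0.01 for UCP2 (208998_at). PDK4's gap between the TET2WT arrays thus had no counterpart at that UCP2 probe set. The dimmer probe sets differed from these. In TET2WT, high glucose first, UCP2 208997_s_at gave 4.15 and 4.36, and ANGPTL4 223333_s_at gave 5.34 and 5.32.

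PLIN2, a coat protein of lipid droplets, was at 11.64 and 11.83 in TET2WT, 11.32 and 11.39 in TET2M, and 11.23 and 11.16 in Mock. It rose against Mock by 0.54 ± 0.101 (limma, adjusted p = 0.0443), while its dim second probe set gave 0.08. The PLIN2 call was lost with all probe sets tested (adjusted p = 0.0649), without the glucose term (adjusted p = 0.0587) and on the mean of its probe sets (adjusted p = 0.111). ACSL5, which activates fatty acids with coenzyme A, rose in TET2WT by 0.93 ± 0.0914 against Mock (limma, adjusted p = 0.00741) and by 0.77 ± 0.0914 against TET2M (adjusted p = 0.0133), the 1 called among the 9 tested genes of fatty acid uptake and activation. CPT1C, a relative of CPT1A found mainly in neurons and with little transferase activity, rose against Mock by 0.77 ± 0.129 (limma, adjusted p = 0.0344), 1 of the 4 other carnitine genes. AMACR, a racemase of branched fatty acids and bile acid precursors, fell by 0.625 ± 0.0893 against Mock (limma, adjusted p = 0.0208) and by 0.605 ± 0.0893 against TET2M (adjusted p = 0.0268), the 1 called of 7 peroxisomal genes. AMACR's other probe sets gave -0.09 and -0.08 against Mock.

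Of the remaining enzymes of mitochondrial beta-oxidation, 0 of 13 passed in TET2WT against Mock, and the largest differences were 0.24 ± 0.107 for ETFB (limma, adjusted p = 0.277), a subunit of the flavoprotein that feeds ETFDH, and 0.23 ± 0.0987 for the enoyl-CoA isomerase ECI2 (adjusted p = 0.277). The pyruvate dehydrogenase complex and its regulators gave 0 of 11 passing with a median of 0.08. The other PDK kinases had positive differences: 0.485 ± 0.156 for PDK1 (adjusted p = 0.163), 0.35 for PDK2 and 0.47 ± 0.110 for PDK3 (adjusted p = 0.0807), none past the threshold. PDK2's dimmer probe set gave -0.03. PDK1 was at 7.09 and 7.39 in TET2WT, 6.74 and 6.57 in TET2M, and 6.91 and 6.60 in Mock, so at this probe set both TET2WT arrays lay above the other 4. At PDK1's dimmer probe sets the lines overlapped: 206686_at gave 5.10 and 5.56 in TET2WT, 5.42 and 5.41 in TET2M, and 5.23 and 4.72 in Mock, and 239798_at gave 3.02 and 3.37 in TET2WT, 3.24 and 2.66 in TET2M, and 3.30 and 2.65 in Mock. Malonyl-CoA turnover, whose product holds CPT1A back, gave 0 of 3 passing, lipolysis 0 of 5 and ketone body metabolism 0 of 2.

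**Figure D4:**
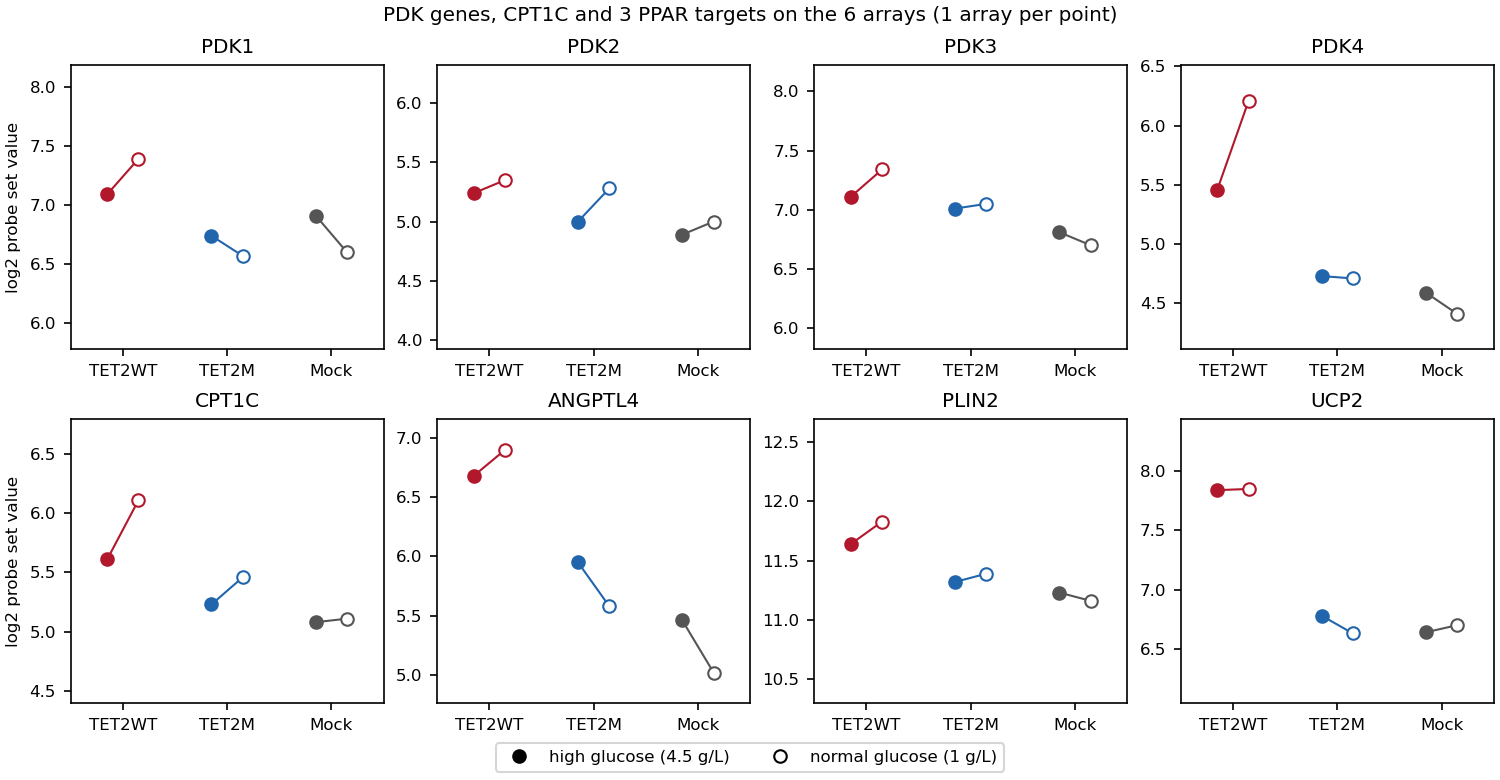
Log2 probe set values of the PDK genes, CPT1C, ANGPTL4, PLIN2 and UCP2 (y axes, each spanning the same number of log2 units) in TET2WT, TET2M and Mock (x axis), 1 array per point, filled for high and open for normal glucose. ANGPTL4 is at 6.68 and 6.90 in TET2WT and at or below 5.95 on the other 4 arrays, and UCP2 at 7.84 and 7.85 against at most 6.78.

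For glucose over the lines 0 of the 75 other genes passed limma's test, beside 0.00693% of all genes, and 12 had an unadjusted p under 0.05. In TET2M against Mock 0 of the 75 passed limma's test, beside 0.0970% of all genes, and 5 had an unadjusted p under 0.05. The largest glucose differences in the lists on the pathway's control were 0.48 for PPARGC1B, a coactivator of the pathway (limma, adjusted p = 0.131), and -0.45 ± 0.0936 for ACACA, which makes malonyl-CoA (adjusted p = 0.163). ACACA was lower in high glucose by -0.37 in TET2WT, -0.31 in TET2M and -0.66 in Mock. In TET2WT against TET2M 4 of the 75 passed, 5.33% beside 3.30% of all genes, and these were ACSL5, ANGPTL4, UCP2 and AMACR.

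**Figure D5:**
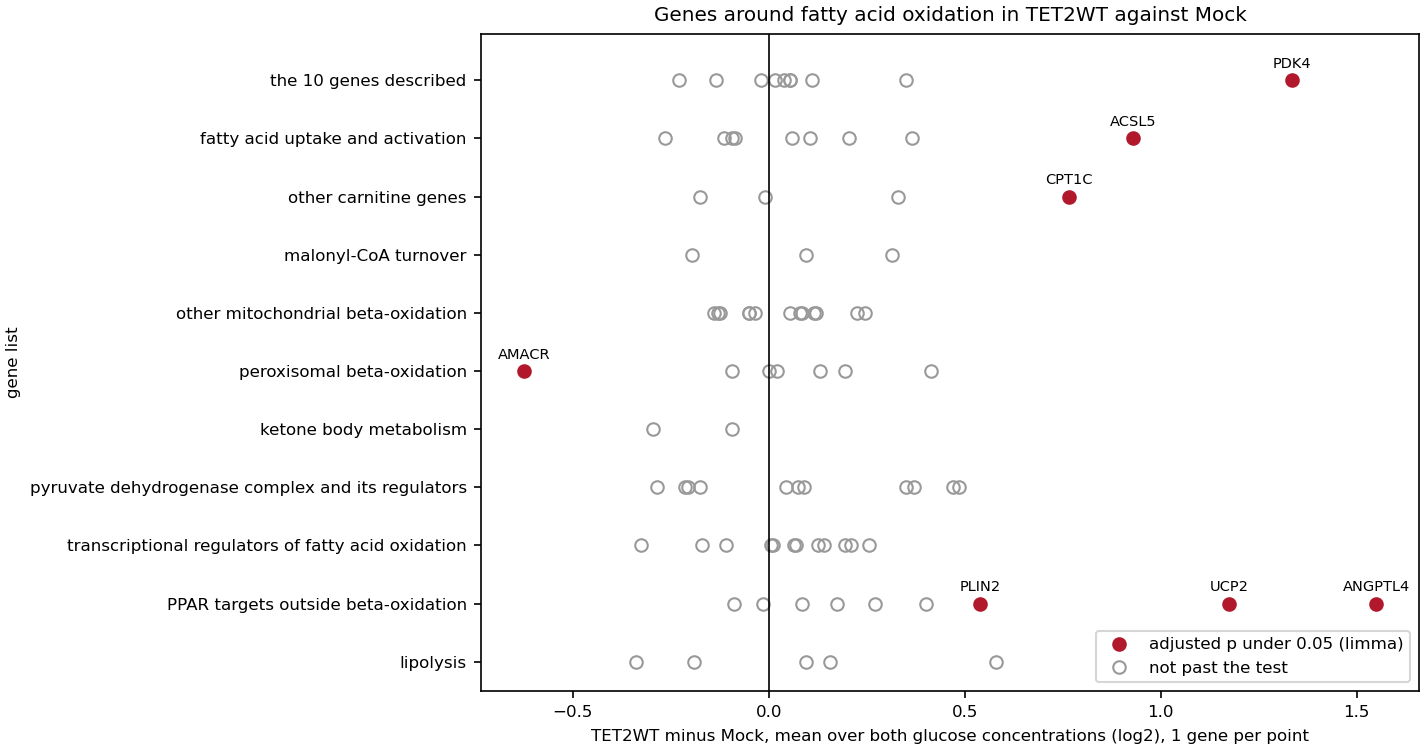
Difference of TET2WT against Mock (x axis, log2, mean over both glucose concentrations) for the 10 genes and the 75 others by list (y axis), 1 gene per point, filled where limma's adjusted p passed the threshold. The filled points are PDK4 at 1.335, ANGPTL4 at 1.55, UCP2, ACSL5, CPT1C and PLIN2 on the right and AMACR at -0.625 on the left.

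The genes whose pattern over the 6 arrays was most like PDK4's, by the Euclidean distance between mean-centred values, were RTP4 (0.254), SIRPB1 (0.299), COL6A1 (0.387), PTGES (0.390) and CACNA2D4 (0.399). RTP4, a chaperone of receptor transport to the cell surface, was at 3.93 and 4.43 in TET2WT, 3.02 and 2.95 in TET2M, and 2.82 and 2.54 in Mock. PTGES, a prostaglandin E synthase, was at 5.49 and 6.14 in TET2WT, 4.40 and 4.79 in TET2M, and 4.28 and 4.38 in Mock. Each of the 5 genes was higher on both TET2WT arrays than on the other 4 and lower in high than in normal glucose in TET2WT. This follows from their choice by nearness to PDK4's pattern. The likeness is a description over 6 arrays that share 3 lines.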

How the data were processed

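Per the labels, total RNA of 3 A2058 lines at 2 glucose concentrations was hybridised to 6 Affymetrix arrays. The authors deposited log2 values of probe sets. The submitters' processing notes name Affymetrix Expression Console, and neither its version nor the summary method is given in the sources used here. That the scale is log2 was inferred from its range (1.56 to 13.78), and the sorted columns differ by at most 0.12. Values were used as deposited.

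Of 54675 probe sets, 41097 had 1 gene symbol, 1801 several and 11777 none in the platform annotation; only the first were used. Symbols of 41043 were updated by gene ID from RefSeq (GRCh38.p14) and 54 were not. The probe set of highest mean stood for its gene, and means under the 40th percentile (2.64) were left out, which left 14428 genes. limma 3.58.1 in R 4.3.3 (tables by data.table, version 1.17.8) fitted line and glucose as additive terms over all 6 arrays by lmFit and eBayes, with 2 residual and 3.97 prior degrees of freedom. Tests were two-sided, adjusted by Benjamini-Hochberg over all genes, threshold 0.05. The script was tested on simulated data. Figures used Python 3.11.15 and matplotlib 3.10.9. Promoters are RefSeq's.

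The genes and lists were chosen with earlier results of these data known. The text names all 10 genes and, of each list described, up to 2 genes per direction among those that passed, or the 2 with the largest differences where 0 passed; PLIN2, PDK2 and the PDK array values were added after their values were seen. For the gene with the widest range, PDK4, the 5 genes of nearest pattern are named. Alternatives were an intensity trend, quantile normalization, the mean of a gene's probe sets, all probe sets, no filter, a dropped term, only the arrays of the lines compared, and each array left out.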

Additional observations from a re-analysis of the deposited data

Results flagged for a closer look

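In 5 of the 10 genes the glucose difference had one sign in TET2WT and the opposite sign in both other lines. PDK4 gave -0.75 in TET2WT, 0.02 in TET2M and 0.18 in Mock, and CPT2 gave -0.37 in TET2WT, 0.02 in TET2M and 0.10 in Mock. ETFDH gave -0.09 in TET2WT, 0.24 in TET2M and 0.32 in Mock. SLC25A20 gave -0.01 in TET2WT, 0.13 in TET2M and 0.18 in Mock, and ACADM gave -0.04 in TET2WT, 0.12 in TET2M and 0.18 in Mock, so in both the TET2WT arrays were nearly equal. Each difference rests on 1 pair of arrays, the difference between lines was not tested, and the genes were chosen by this contrast. How many of all genes have this sign pattern was not counted, so nothing is read from the count of 5.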

How the results depend on the processing

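Precision is set by the number of arrays, and with 2 residual degrees of freedom limma's calls move with the variance model. Leaving out any 1 array, or keeping only the 4 arrays of TET2WT and Mock, leaves 1 residual degree of freedom, and then 0 of the 10 genes and 0 of the 75 other pathway genes passed in TET2WT against Mock (0 to 16 of all genes, against 608). With an intensity trend 1 of the 10 genes passed for glucose, 2 for TET2WT against Mock and 1 for TET2WT against TET2M, and 12 of the other pathway genes for TET2WT against Mock. Quantile normalization let 1 pass for TET2WT against TET2M. Without the glucose term 3 of the other pathway genes passed. Of those 6 genes, AMACR and PLIN2 did not pass on the mean of their probe sets (-0.26 and 0.31). The count of 10 genes with TET2WT below both lines was the same with quantile normalization and with the mean of probe sets. All-gene counts were 1528 with a trend and 318 without the glucose term for TET2WT against Mock. For glucose they were 573 with a trend, 5 with quantile normalization, 5 with the mean of probe sets, 2 without a filter and 0 without the line term, against 1. For TET2M against Mock they were 149 with a trend, 25 with the mean of probe sets and 7 without the glucose term, against 14, and for TET2WT against TET2M 1249 and 267, with a trend and without the glucose term, against 476. With only the 4 arrays of the lines compared, 0 genes passed in TET2M against Mock and in TET2WT against TET2M, and without any 1 array 0 passed there and for glucose. Small differences that did not pass changed sign: ACADM in TET2WT against Mock was 0.02 after quantile normalization, and on the mean of probe sets HADHA was -0.015 in TET2WT against Mock, and ETFDH was 0.155 in TET2M against Mock and -0.1075 in TET2WT against TET2M. Without 1 array the glucose difference ran from -0.365 to 0.1 for PDK4 and -0.175 to 0.06 for CPT2. TET2WT against Mock ran from -0.2825 to 0.0125 for CPT1A, -0.16 to 0.27 for CPT2, -0.0675 to 0.0975 for SLC25A20, -0.115 to 0.075 for ACADM and -0.13 to 0.24 for ETFDH. TET2M against Mock ran from -0.0525 to 0.4925 for PDK4, -0.0025 to 0.2125 for CPT1A, -0.055 to 0.065 for SLC25A20, -0.01 to 0.09 for HADHB, -0.015 to 0.115 for HADH and -0.2225 to 0.0225 for ETFDH. TET2WT against TET2M ran from -0.36 to 0.07 for CPT2, -0.0725 to 0.0925 for SLC25A20, -0.025 to 0.165 for ACADM and -0.03 to 0.34 for ETFDH. Apart from the fewer arrays, the cause was not tested. Alternatives for the other pathway genes were chosen after seeing the data. The labels carry no replicate numbers, and the glucose test pairs the 2 arrays of each line through its line term.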

Other observations

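Among the marker lists, 1 gene each of the keratinocyte, fibroblast, blood and melanocyte lists fell in TET2WT against Mock, and the other tested members of these lists did not pass. KRT14, a keratin of basal epithelium, fell in TET2WT against Mock (limma, adjusted p = 0.000442) and against TET2M (adjusted p = 0.00155). It was at 4.55 and 3.89 in TET2WT, 6.22 and 5.91 in TET2M, and 6.86 and 6.38 in Mock. Other keratinocyte markers gave 0.025 (KRT1), 0.055 (KRT5) and 0.01 (KRT10) against Mock, and the list's median was 0.0175. LUM, a matrix proteoglycan of fibroblasts, fell by 1.06 ± 0.128 in TET2WT against Mock (limma, adjusted p = 0.0137), beside 0.34 for COL1A1, 0.155 for PDGFRB and -0.195 for DCN. LYZ, lysozyme of myeloid cells, fell by 0.765 (limma, adjusted p = 0.0116), beside 0.245 for CD3E. MITF, the melanocyte lineage factor, fell by 0.595 in TET2WT against Mock (limma, adjusted p = 0.0433), whereas SOX10 (0.115), PMEL (0.155) and S100B (0.24) had positive differences and the list's median was 0.135. The part of these differences in those of the fatty acid oxidation genes was not tested.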
